A study of Mus musculus with 141 samples.

Results

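Foxp3 and 6 genes that are commonly used to describe regulatory T cells (Tregs) were followed by RNA sequencing through 72 h of mouse helper T cell culture. The 7 genes, of 46517 in the deposited table, were chosen by name: the transcription factors Foxp3, Ikzf2 (Helios) and Ikzf4 (Eos), the checkpoint receptor Ctla4, the ectoenzymes Nt5e (CD73) and Entpd1 (CD39), and Lrrc32 (GARP). Naive CD4 T cells, sorted as CD4+CD25-CD44lo to an average purity of 99.9% per the labels, were taken from C57BL/6 mice (spleen and lymph nodes). All cultures were stimulated with plate-bound antibodies to CD3 and CD28. The labels number replicate courses 1 to 6. Courses 1 to 3 received either no polarizing cytokine (Th0) or IL6 (20 ng/ml) with TGFb (1 ng/ml), and in courses 4 to 6 the same pair was combined with IL1b (10 ng/ml), with IL21 (20 ng/ml) or with the 2 together, here called the IL1b, IL21 and double cocktails. Libraries were made before stimulation (0 h, 1 naive group for each set of courses), at 0.5, 1 and 2 h, at 4, 6 and 12 h, and at 24, 48 and 72 h, giving 47 groups of 3 libraries. The age of the mice, and which libraries share a mouse or a culture dish, are not stated in the labels, so p-values measure only the spread between these libraries.

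Tregs are CD4 T cells that restrain other immune cells, and Foxp3 is the transcription factor that defines them. TGFb can switch Foxp3 on in activated T cells, while IL6, acting through STAT3, opposes this and directs the same cells towards the Th17 fate. Most of the other genes are not restricted to Tregs: Ctla4 is switched on in activated T cells generally, where its product competes with CD28 for ligands, and CD39 and CD73 act in sequence on extracellular nucleotides to make adenosine. Helios and Eos belong to the Ikaros family of zinc finger factors, and GARP holds latent TGFb at the cell surface.

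The promoters of 4 of the 7 genes are shown because Ctla4, Nt5e and Entpd1 are the genes called higher with IL6 and TGFb than without cytokines at each of 24, 48 and 72 h, and Foxp3 is the gene around which the set was drawn. The sequences are RefSeq windows of 300 bases on the + strand of GRCm38.p6, matched by symbol, from 250 bases before the annotated start to 50 after it. They lie at chrX:7579426-7579725 (Foxp3), chr1:60908775-60909074 (Ctla4), chr9:88327359-88327658 (Nt5e) and chr19:40612116-40612415 (Entpd1). Capitals mark, on either strand, the letters searched for factors of the cytokine and T cell receptor pathways: STAT (TTCNNNGAA), AP-1 (TGANTCA), SMAD (GTCTG), NFAT (GGAAA) and the TATA box (TATAAA).
Foxp3: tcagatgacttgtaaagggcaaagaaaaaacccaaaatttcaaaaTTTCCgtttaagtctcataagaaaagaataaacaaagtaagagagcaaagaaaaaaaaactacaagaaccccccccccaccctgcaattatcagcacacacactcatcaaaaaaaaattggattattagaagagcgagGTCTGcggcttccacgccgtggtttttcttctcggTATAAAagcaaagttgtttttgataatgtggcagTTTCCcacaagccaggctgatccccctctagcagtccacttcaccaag
Ctla4: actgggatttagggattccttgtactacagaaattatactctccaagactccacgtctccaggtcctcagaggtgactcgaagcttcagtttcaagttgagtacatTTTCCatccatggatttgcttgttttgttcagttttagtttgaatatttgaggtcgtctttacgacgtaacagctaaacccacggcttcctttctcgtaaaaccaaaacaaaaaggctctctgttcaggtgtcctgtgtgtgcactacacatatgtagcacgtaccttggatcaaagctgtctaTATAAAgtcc
Nt5e: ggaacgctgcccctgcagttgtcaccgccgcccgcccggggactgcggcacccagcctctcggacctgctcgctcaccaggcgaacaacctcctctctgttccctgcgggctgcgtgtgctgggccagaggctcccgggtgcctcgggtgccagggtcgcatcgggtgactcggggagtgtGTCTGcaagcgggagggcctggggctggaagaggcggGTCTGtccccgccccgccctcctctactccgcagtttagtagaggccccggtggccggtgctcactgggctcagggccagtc
Entpd1: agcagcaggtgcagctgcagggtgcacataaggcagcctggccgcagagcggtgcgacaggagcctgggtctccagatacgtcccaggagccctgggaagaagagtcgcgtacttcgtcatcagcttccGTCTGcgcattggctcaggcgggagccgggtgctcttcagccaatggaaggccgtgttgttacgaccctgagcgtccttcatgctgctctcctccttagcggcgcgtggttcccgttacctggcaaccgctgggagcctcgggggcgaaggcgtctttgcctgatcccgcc

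In these windows the SMAD letters occurred once in Foxp3 (position 184, counted from 1 at the 5′ end), once in Entpd1 (position 130) and in 2 places in Nt5e (positions 182 and 219), and not in Ctla4. The NFAT letters occurred in Foxp3 (positions 46 and 253) and in Ctla4 (position 107), and the TATA letters in Foxp3 (position 219) and in Ctla4 (position 291). The STAT and AP-1 letters were in none of the 4 windows printed. Letters for CRE (TGACGTCA), its shorter form (TGACG) and RUNX (TGTGGN) were also searched and are not marked. In the printed windows the RUNX letters occurred in Foxp3 (positions 245 and 256) and the TGACG letters in Entpd1 (position 116). Over all windows 55.8% held the RUNX letters and 20.8% the TGACG letters. Over all 32851 RefSeq promoter windows of that length, 49.6% held the SMAD letters, 61.3% the NFAT letters, 13.6% the TATA letters, 8.3% the STAT letters and 7.81% the AP-1 letters, so single matches to the short motifs are common. Foxp3 and Entpd1 each had a second RefSeq start, not printed. The second Foxp3 window held the STAT letters once (position 112) and the NFAT letters once (position 111, overlapping the STAT letters), and the second Entpd1 window the NFAT letters in 2 places (positions 18 and 121) and the SMAD letters once (position 240). Ikzf2, Ikzf4 and Lrrc32 were not matched.

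Levels are counted reads scaled to a common library total (CPM). Libraries held 15.95 to 47.1 M counted reads (median 25.4 M), so that 1 read equals 0.0212 to 0.0627 CPM, and all 7 genes passed the filter for testing. Changes are log2 differences ± SE of CPM plus 0.5 from limma, with 3 libraries in each group, and were called at a Benjamini-Hochberg adjusted p under 0.05 over all genes tested; the added 0.5 understates changes of low genes. The T cell list (9 genes, among them Cd3e, Cd4 and Lck) summed to between 5373 and 6108 CPM in the naive libraries, against 11.9 to 23.5 CPM for 8 B cell genes and 31.4 to 52.2 CPM for 9 myeloid genes. In bulk RNA, fewer cells of a type and less RNA per cell cannot be told apart. In the GENCODE annotation Foxp3 overlaps neighbours (Ccdc22, Ppp1r3f and the noncoding Flicr) and Ikzf2 an antisense transcript, and no source here says whether the counting used strand, so reads from these overlaps cannot be told apart.

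Some late libraries stood apart from their partners. The distance of a library from its group was taken as the root mean square of log2 deviations over genes. It was 0.63 in the course 1 library without cytokines at 72 h and 0.43 at 48 h. Its median in courses 1 to 3 was 0.158. In courses 4 to 6 it was largest in the course 4 libraries of the IL21 and double cocktails at 72 h (0.277 and 0.273, median 0.151). The naive T cell list (7 genes, among them Ccr7 and Tcf7) moved with the first of these differences: without cytokines at 72 h it summed to 1240 CPM in course 1 and to 2818 and 2607 CPM in courses 2 and 3. The NK cell list (5 genes) moved with the second: in the IL21 cocktail at 72 h it summed to 92.3 CPM in course 4 and to 18.2 and 36.6 CPM in courses 5 and 6, nearly all of it Klrd1, while Ncr1 and Klrb1c were at 0. Their part in the results was not tested.

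**Figure D1:**
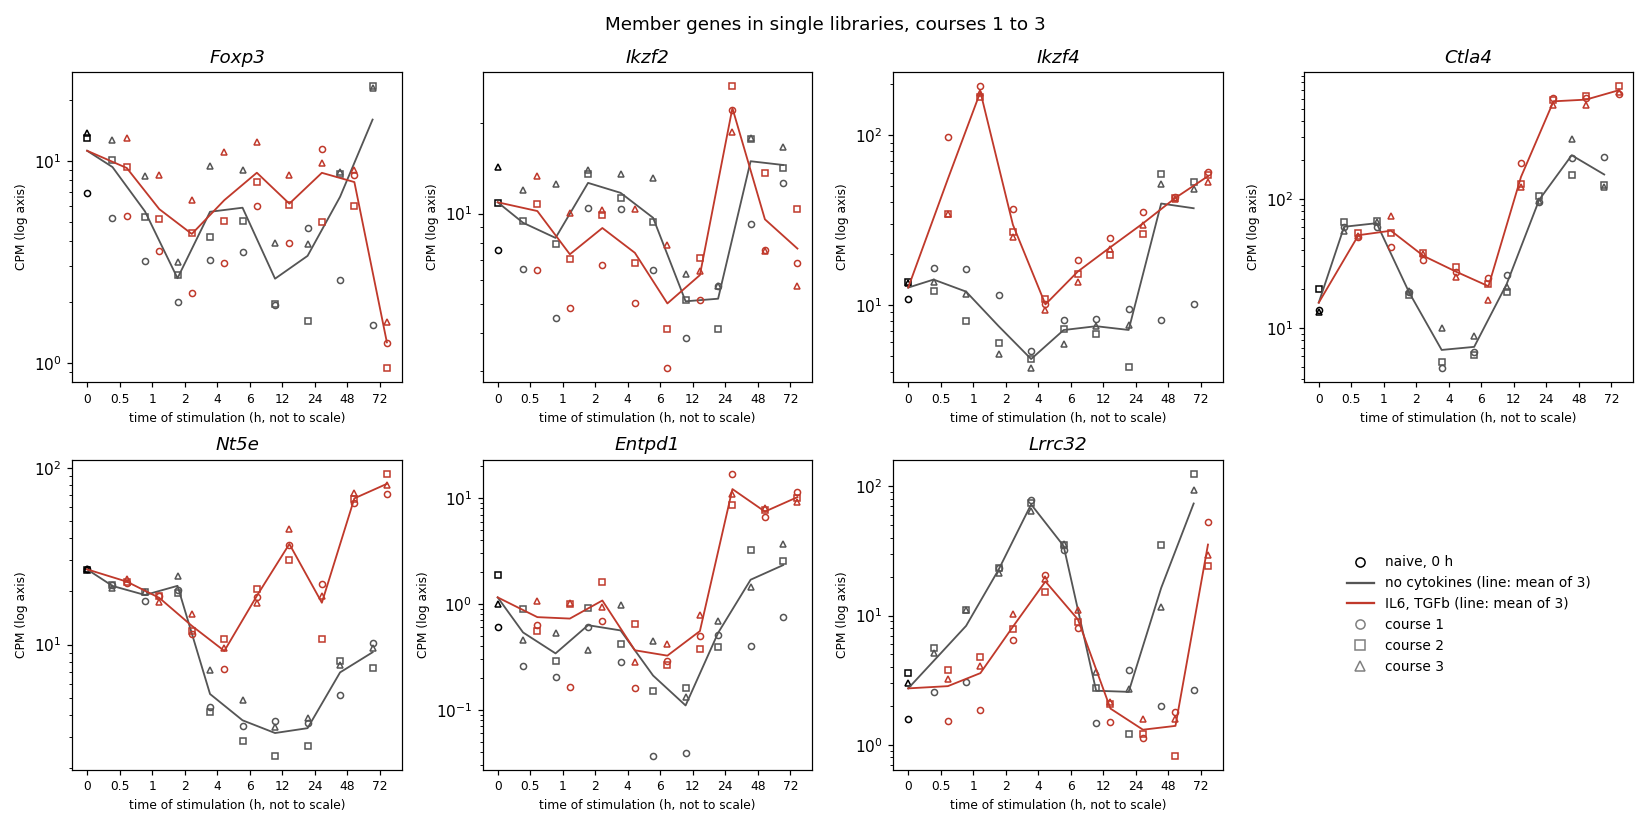
CPM of the 7 genes (log axis, 1 panel per gene) against hours of culture in courses 1 to 3, with 1 symbol shape per course and colours for naive cells, no cytokines and IL6 with TGFb. Ikzf4 peaks at 1 h with IL6 and TGFb (167 to 194 CPM), Lrrc32 has a first peak at 4 h without cytokines (64.2 to 79.0 CPM) and is higher again at 72 h in courses 2 and 3 (125 and 93.1 CPM), and course 1 falls away from courses 2 and 3 late without cytokines in Foxp3, Ikzf4 and Lrrc32.

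Foxp3 fell after stimulation, and its lowest group mean of all 47 was that of IL6 and TGFb cultures at 72 h. Naive cells of courses 1, 2 and 3 had 6.89, 13.02 and 13.7 CPM, and those of courses 4, 5 and 6 had 7.86, 8.33 and 9.90 CPM. Without cytokines the level was 1.99, 2.72 and 3.15 CPM at 2 h, below every naive library, and the fall on the log2 scale passed the test at 2 h (-1.65 ± 0.58, adjusted p = 0.0101), 12 h (-1.92 ± 0.58, adjusted p = 0.0029) and 24 h (-1.73 ± 0.58, adjusted p = 0.00697). Each of these 3 calls was lost without course 2 (adjusted p = 0.127, 0.0945 and 0.223), and the one at 2 h also without course 3 (adjusted p = 0.0504).

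At 24 h, IL6 and TGFb cultures had 11.4, 4.97 and 9.78 CPM of Foxp3 in courses 1, 2 and 3, and cultures without cytokines had 4.65, 1.61 and 3.89 CPM. The Th17 libraries were higher in each course, by 2.45, 3.09 and 2.51 times, and all 3 lay above the 3 without cytokines. The log2 difference of 1.29 ± 0.58 was not called (adjusted p = 0.0963), although it was in a fit of these 6 libraries alone (adjusted p = 0.0158) and without course 1 (adjusted p = 0.0154). DESeq2 did not call it either.

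By 72 h the order had turned. Foxp3 was at 1.26, 0.945 and 1.59 CPM with IL6 and TGFb, and at 1.54, 23.4 and 22.95 CPM without cytokines. Courses 2 and 3 without cytokines therefore stood well above all Th17 libraries, and course 1 did not: its ratio of Th17 to no cytokines was 0.82, against 0.040 and 0.069 in the other courses. Foxp3 was called lower in the Th17 cultures (-2.49 ± 0.58, adjusted p = 0.0004). The difference grew to -3.66 without course 1 (adjusted p = 1.28e-08), was -1.77 without course 2 (adjusted p = 0.125), and missed the threshold in a fit of the 6 libraries alone (adjusted p = 0.123).
Against naive cells, Foxp3 fell by 2.71 ± 0.58 on the log2 scale in the Th17 cultures at 72 h (adjusted p = 5.52e-05). The change of the cytokine effect from 24 to 72 h was itself called (-3.78 ± 0.81, adjusted p = 0.000455, where 21.6% of all genes were called), but not without course 2 (-3.03, adjusted p = 0.121).

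Ikzf4 was the first of the 7 genes to be called between IL6 with TGFb and no cytokines. Its product, Eos, is known as a partner of Foxp3 in gene repression. At 0.5 h it was at 96.9, 34.0 and 34.3 CPM with IL6 and TGFb and at 16.4, 12.1 and 13.6 CPM without; the groups did not overlap, but limma did not call the difference (1.75 ± 0.45, adjusted p = 0.0546). At that time limma called 0 of the 7 genes and 0.612% of all genes tested; Ikzf4 alone passed at an unadjusted p under 0.05, and it alone was called by edgeR (adjusted p = 0.0146) and by DESeq2 (adjusted p = 0.00229).

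At 1 h the level was 194, 167 and 176 CPM with cytokines against 16.3, 8.05 and 11.5 CPM without, ratios of 11.9, 20.8 and 15.4. Ikzf4 rose by 3.94 ± 0.45 on the log2 scale (adjusted p = 5.34e-09) and was the 1 gene of the 7 called, with 7.96% of all genes called. This peak was short: at 2 h Ikzf4 was at 36.7, 26.98 and 25.1 CPM with cytokines (log2 difference 2.00, adjusted p = 0.00129), and at 4 h at 10.1, 10.7 and 9.26 CPM against 5.35, 4.76 and 4.25 CPM without.

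A second, slower rise followed. Ikzf4 was higher with IL6 and TGFb at 12 h (1.49 ± 0.45, adjusted p = 0.0237) and at 24 h, when it was at 35.1, 25.9 and 29.3 CPM against 9.42, 4.27 and 7.60 CPM (2.09 ± 0.45, adjusted p = 0.000318). The calls at 2 and 12 h were lost without course 2 (adjusted p = 0.0811 and 0.262) and without course 3 (adjusted p = 0.083 and 0.275). At 48 h the Th17 cultures had 42.9, 42.7 and 42.2 CPM, and cultures without cytokines had 8.12, 58.5 and 51.7 CPM. Courses 2 and 3 thus lay higher without cytokines at 48 h, and the difference was not called. At 72 h the Th17 cultures had 60.5, 58.0 and 52.9 CPM, and cultures without cytokines had 10.2, 53.0 and 47.8 CPM. The difference at 72 h was not called (1.02, adjusted p = 0.0596) and was 0.24 without course 1 (adjusted p = 0.206), the course whose library without cytokines was the low one.

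Ikzf2, the Helios gene, had its highest mean of all 47 groups at 24 h with IL6 and TGFb. With IL6 and TGFb it was at 22.1, 26.6 and 18.7 CPM at 24 h, against 5.75, 4.12 and 5.75 CPM without cytokines and 7.54, 10.8 and 14.3 CPM in naive cells. Every Th17 library lay above every library of both other groups. The log2 difference from no cytokines was 2.03 ± 0.32 (adjusted p = 2.04e-06), with ratios of 3.84, 6.47 and 3.26 in the 3 courses. Without cytokines it was higher later, at 9.24, 17.7 and 17.9 CPM at 48 h, than at 24 h, a change that was not tested. At 72 h the Th17 cultures were below, with 6.86, 10.4 and 5.72 CPM against 12.7, 14.2 and 16.7 CPM (-0.82 ± 0.32, adjusted p = 0.0317), a call that was lost without course 2 (adjusted p = 0.103), without course 3 (adjusted p = 0.287) and with no filter on low genes (adjusted p = 0.094). Without course 1 it was -0.85 (adjusted p = 0.0142).
The cytokine effect on Ikzf2 changed by 2.51 ± 0.45 from 2 to 24 h (adjusted p = 3.65e-05, where 19.4% of all genes were called) and by -2.85 ± 0.45 from 24 to 72 h (adjusted p = 4.34e-06).

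Ctla4 was raised by stimulation alone and further by the cytokines. Within 0.5 h of stimulation without cytokines it was at 60.6, 65.6 and 56.0 CPM, from 13.8, 20.0 and 13.2 CPM in naive cells. It then fell to 4.89, 5.38 and 9.92 CPM at 4 h, below every naive library (-1.09 ± 0.20, adjusted p = 5.45e-06), before a second rise to 93.7, 104 and 96.8 CPM at 24 h. With IL6 and TGFb it was at 27.1, 29.8 and 24.9 CPM at 4 h (1.98 ± 0.20 above no cytokines, adjusted p = 4.79e-10), and at its lowest after the first rise at 6 h, with 24.5, 22.01 and 16.5 CPM.

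From 12 h the Ctla4 levels of the 2 conditions were far apart. At 12 h the Th17 libraries had 190, 130 and 124 CPM, against 25.6, 19.03 and 20.9 CPM, and at 24 h 601, 582 and 530 CPM. The difference from no cytokines was 2.72 ± 0.20 at 12 h (adjusted p = 1.55e-14), 2.56 ± 0.20 at 24 h (adjusted p = 4e-14) and 2.30 ± 0.20 at 72 h (adjusted p = 4.96e-13; 2.60 without course 1). At 72 h Ctla4 stood at 656, 751 and 678 CPM with IL6 and TGFb and at 211, 129 and 124 CPM without. Measured against naive cells, the gain at 72 h was 5.41 ± 0.20 on the log2 scale in the Th17 cultures (adjusted p = 4.57e-26) and 3.11 without cytokines. Ctla4 was called higher with cytokines at every time from 2 to 72 h, and only the call at 2 h was lost when a course was left out (without course 2, adjusted p = 0.073).

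Nt5e had fallen below every naive library by 4 h in both conditions, and it was called different between them from 2 h on. Its product, CD73, converts AMP to adenosine. Naive cells had 26.9, 26.3 and 26.6 CPM. Without cytokines the level fell to 3.71, 2.35 and 3.41 CPM at 12 h (-2.92 ± 0.19, adjusted p = 1.47e-17) and remained under every naive library at 72 h, with 10.2, 7.32 and 9.57 CPM.

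With IL6 and TGFb, Nt5e was first lower than without cytokines, at 11.5, 11.9 and 14.9 CPM against 20.4, 19.5 and 24.5 CPM at 2 h (-0.72 ± 0.19, adjusted p = 0.00725). This call was lost without course 1 (adjusted p = 0.0586) and without course 3 (adjusted p = 0.0941). The order then turned. The Th17 libraries had 36.4, 29.9 and 44.9 CPM at 12 h, ratios of 9.81, 12.7 and 13.2 to no cytokines (3.36 ± 0.19, adjusted p = 5.23e-18). They dipped to 22.1, 10.8 and 18.8 CPM at 24 h, still above the 3.58, 2.67 and 3.85 CPM without cytokines, and reached 70.7, 92.5 and 80.0 CPM at 72 h (3.18 ± 0.19, adjusted p = 3.05e-18; 3.39 without course 1). Against naive cells the Th17 cultures were called lower at 2, 4, 6 and 24 h and higher at 12, 48 and 72 h. The smaller difference at 4 h (0.76, adjusted p = 0.00997) was lost without course 2 (adjusted p = 0.253).

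Entpd1 was at 1 CPM or below in most libraries until 24 h with IL6 and TGFb. Its product, CD39, breaks ATP and ADP down to AMP, the substrate of CD73. Naive cells of courses 1, 2 and 3 had 0.611, 1.86 and 0.989 CPM. Without cytokines the level fell to 0.0386, 0.16 and 0.131 CPM at 12 h, in course 1 a single read, and limma called this change at an adjusted p of 0.00129 (log2 change -1.36 on the scale of CPM plus 0.5). With IL6 and TGFb it was at 0.50, 0.378 and 0.784 CPM at 12 h and at 17.01, 8.69 and 10.8 CPM at 24 h, when cultures without cytokines had 0.511, 0.392 and 0.695 CPM.

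The ratio of Th17 to no cytokines for Entpd1 was 33.3, 22.2 and 15.6 at 24 h (log2 difference 3.53 ± 0.37, adjusted p = 2.38e-10). It stayed higher at 48 h (2.17, adjusted p = 4.85e-06) and at 72 h, with 11.4, 9.97 and 9.27 CPM against 0.748, 2.56 and 3.68 CPM (2.13, adjusted p = 7.42e-06; 1.59 without course 1). The effect grew by 3.04 ± 0.53 from 2 to 24 h (adjusted p = 2.11e-05). Limma first called Entpd1 at 24 h; at 12 h it did not (0.76, adjusted p = 0.274, unadjusted p = 0.0478) and DESeq2 did (2.35, adjusted p = 0.0284). Nt5e was above its no-cytokine level at 6 h, with 18.5, 20.7 and 17.3 CPM against 3.47, 2.84 and 4.87 CPM.

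Lrrc32 had an early peak after stimulation. Without cytokines it went from 1.59, 3.59 and 3.01 CPM in naive cells to 23.3, 23.3 and 21.5 CPM at 2 h, 79.0, 74.8 and 64.2 CPM at 4 h and 32.4, 35.5 and 36.0 CPM at 6 h. It was back at 1.47, 2.75 and 3.63 CPM at 12 h. The rise over naive cells at 4 h was 4.66 ± 0.72 without cytokines (adjusted p = 1.76e-07) and 2.68 ± 0.72 with IL6 and TGFb (adjusted p = 0.000944).

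At 4 h the Lrrc32 level with IL6 and TGFb was 20.6, 15.2 and 19.3 CPM, so the groups did not overlap and the ratios were 0.26, 0.20 and 0.30. This difference was not called when the spread was taken from all groups (-1.98 ± 0.72, adjusted p = 0.131). It was called in a fit of the 6 libraries alone (-1.96, adjusted p = 1.23e-05) and without course 1 (-1.99, adjusted p = 5.61e-05). It was not called without course 2, without course 3 or with DESeq2. The spread over all groups also takes in the late libraries without cytokines, where courses were far apart. Those had 2.00, 35.4 and 11.6 CPM at 48 h and 2.64, 125 and 93.1 CPM at 72 h. Their part in the result at 4 h was not tested.

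At 72 h Lrrc32 was also high with IL6 and TGFb, at 52.7, 24.0 and 29.7 CPM, and no difference was called (0.11 ± 0.72, adjusted p = 0.915). Without course 1 the Th17 cultures were lower (-1.89, adjusted p = 9.33e-06). At 48 h Lrrc32 was at 1.78, 0.823 and 1.59 CPM in the Th17 cultures and was called lower (-2.33, adjusted p = 0.00581; -3.47 without course 1), which did not hold without course 2 (-1.22, adjusted p = 0.325), without course 3 (adjusted p = 0.0999) or in a fit of the 6 libraries alone (adjusted p = 0.074). Pecam1, an adhesion gene that T cells also express and that dominates the endothelial list (4 genes), followed the same courses: the list summed to 57.04 CPM in course 1 and to 195 and 203 CPM in courses 2 and 3 without cytokines at 72 h. Its part in the Lrrc32 values was not tested. The platelet list (6 genes), from another cell type known to carry GARP, summed to 4.60 to 5.47 CPM at 4 h without cytokines. It summed to 4.71 to 5.55 CPM with them and to 5.89 to 8.11 CPM in naive cells. In naive cells of courses 1 to 3 its highest genes were Itga2b (3.10 to 4.73 CPM) and Gp1ba (2.74 to 3.38 CPM), with Pf4, Ppbp and Gp1bb at 0. The part of platelet RNA in the Lrrc32 values was not tested.

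**Figure D2:**
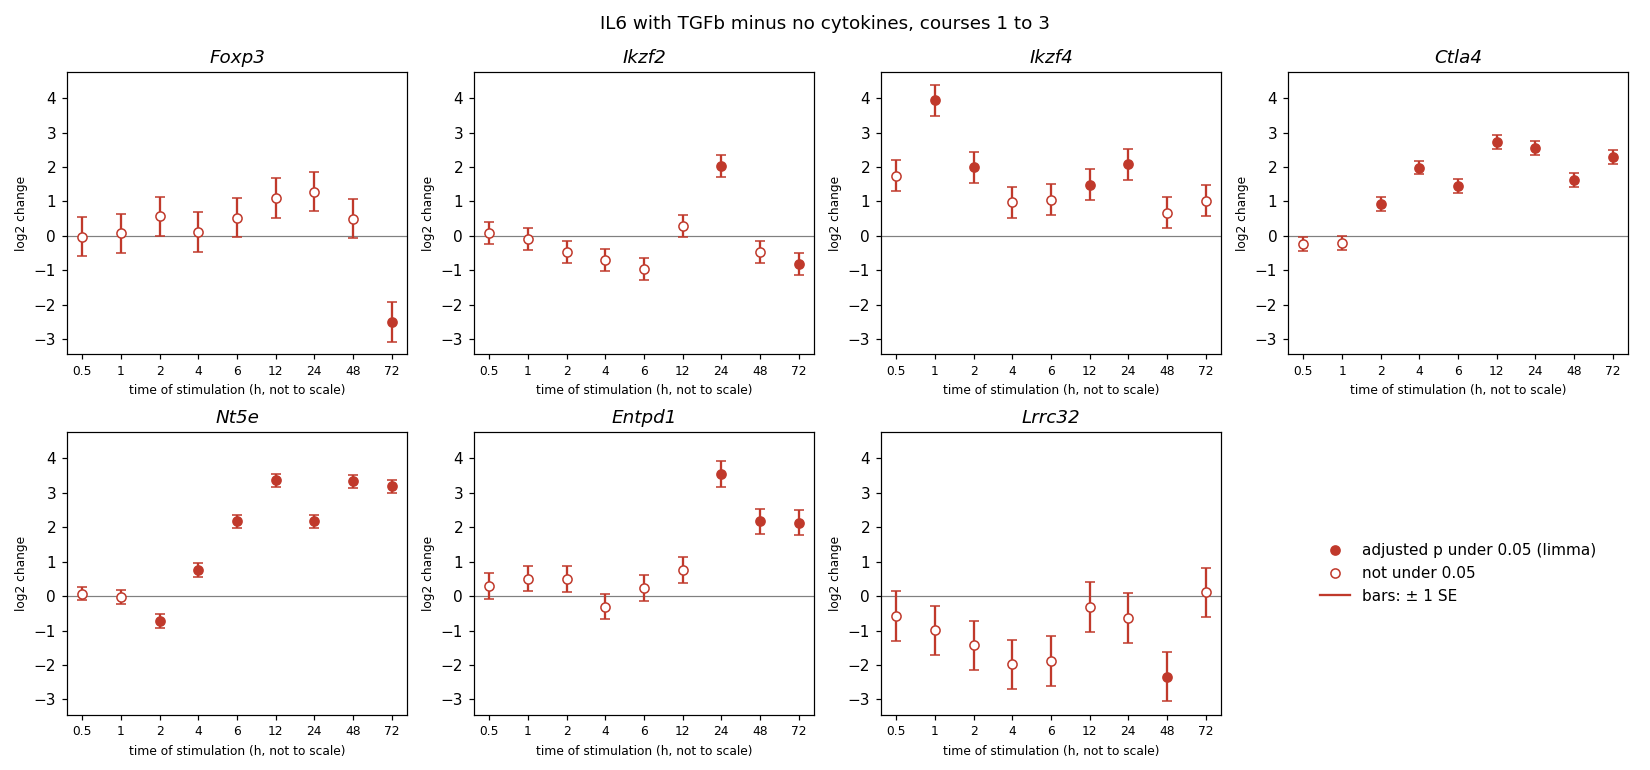
Log2 difference of each gene between IL6 with TGFb and no cytokines at 9 times in courses 1 to 3, with bars of ± 1 SE from limma and filled points where the adjusted p was under 0.05. Nt5e turns from -0.72 at 2 h to 3.36 at 12 h, and Foxp3 turns from 1.29 at 24 h, not called, to -2.49 at 72 h.

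Counted over the 7 genes, IL6 and TGFb against no cytokines gave 1 call at 1 h and 3 at 2 h (Ikzf4 and Ctla4 higher, Nt5e lower; 12.4% of all genes called). At 4 and 6 h, 2 genes were called (Ctla4 and Nt5e, both higher; 4.4% and 4.61% of all genes), and at 12 h 3 (Ikzf4, Ctla4 and Nt5e higher; 9.52%). At 24 h 5 of 7 were called, all higher (Ikzf4, Ikzf2, Ctla4, Nt5e and Entpd1; 26.1% of all genes). At 48 h 3 were higher (Ctla4, Nt5e and Entpd1) and 1 lower (Lrrc32; 53% of all genes), and at 72 h the same 3 were higher while Ikzf2 and Foxp3 were lower (46.3% of all genes). At the last 2 times about as many of all genes were called as not, so a call for a single gene was common.

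Same-numbered libraries of these 2 conditions deviated together at 0.5, 1, 2, 4 and 12 h. With the course as a block in the fit of all groups, the calls at these times were the same. With the block in a fit of only the 6 libraries compared, an alternative chosen after seeing the data, the spread was taken from those libraries alone and more genes were called. At 0.5 h these were Ikzf4 (1.75, adjusted p = 0.00215), Ctla4 (-0.22, adjusted p = 0.0423) and Lrrc32 (-0.58, adjusted p = 0.0498), where 2.84% of all genes were called, and at 1 h Lrrc32 (-0.96, adjusted p = 0.000856) beside Ikzf4, where 19% were. Lrrc32 was lower with cytokines in each course at both times, at 1.53, 3.76 and 3.23 CPM against 2.55, 5.62 and 5.16 CPM at 0.5 h and at 1.85, 4.81 and 4.09 CPM against 3.05, 10.96 and 10.96 CPM at 1 h.

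The same fit added Foxp3 (0.58, adjusted p = 0.0133), Ikzf2 (-0.45, adjusted p = 0.00137) and Lrrc32 (-1.40, adjusted p = 1.13e-06) at 2 h (35.4% of all genes). At 4 h it added Ikzf2 (-0.68, adjusted p = 0.000153), Ikzf4 (1.00, adjusted p = 1.04e-06) and Lrrc32 (-1.96, adjusted p = 6.71e-12; 22.1%). At 12 h it added Foxp3 (1.12, adjusted p = 1.18e-05) and Ikzf2 (0.31, adjusted p = 0.0383; 39.2%).

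Stimulation without cytokines changed most genes in the cell, and counts against naive cells are read with that in view: from 1 to 72 h between 57.3% and 72.9% of all genes were called. Of the 7 genes, Ctla4 alone was called at 0.5 h (higher; 23.1% of all genes) and at 1 h (higher; 57.3%). At 2 h Ctla4 and Lrrc32 were higher and Foxp3 lower (69.2%), at 4 h Lrrc32 was higher and Ikzf4, Ctla4 and Nt5e lower (72.9%), and at 6 h Lrrc32 was higher and Ctla4, Nt5e and Entpd1 lower (72.4%). At 12 h Ctla4 was higher and 4 genes were lower, Ikzf2, Nt5e, Foxp3 and Entpd1 (71.7%), and at 24 h Ctla4 was higher and Ikzf2, Nt5e and Foxp3 lower (72.7%). At 48 h (69.7%) and 72 h (65.4%) Ikzf4, Ctla4 and Lrrc32 were higher and Nt5e lower. The rise of Lrrc32 at 72 h (3.30 ± 0.72, adjusted p = 9.6e-05) was 4.75 without course 1 and was not called in a fit of the libraries compared alone (adjusted p = 0.0956). The late rises of Ikzf4 (1.03 at 48 h and 1.08 at 72 h) were 1.84 and 1.77 without course 1 and did not hold without course 2 (48 h adjusted p = 0.383, 72 h adjusted p = 0.293) or without course 3 (48 h adjusted p = 0.348, 72 h adjusted p = 0.312). In all, 18 of these 30 calls held when any 1 course was left out. The other 12 (adjusted p between 0.0504 and 0.399 where lost) depended on course 1 or 3 for Ctla4 at 2 and 12 h, on course 2 alone for Entpd1 at 6 h, for Foxp3 and Ikzf2 at 12 and 24 h, and on course 2 or 3 for Foxp3 at 2 h, Ikzf4 at 4, 48 and 72 h and Lrrc32 at 48 h. The Ctla4 call at 2 h was also lost without TMM scaling (adjusted p = 0.232).

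Against naive cells, the IL6 and TGFb cultures had 2 genes higher, Ikzf4 and Ctla4, at 0.5 h (27.7% of all genes called) and at 1 h (56.6%). At 2 h Ikzf4, Ctla4 and Lrrc32 were higher and Nt5e lower (70.7%), at 4 h Ctla4 and Lrrc32 were higher and Nt5e and Entpd1 lower (72.5%), and at 6 h Lrrc32 was higher and Ikzf2, Nt5e and Entpd1 lower (71.9%). At 12 h Ctla4 and Nt5e were higher and Ikzf2 lower (72.6%), and at 24 h Ikzf4, Ikzf2, Ctla4 and Entpd1 were higher and Nt5e lower (75.6%). At 48 h Ikzf4, Ctla4, Nt5e and Entpd1 were higher and 0 genes lower (77.7%), and at 72 h Ikzf4, Ctla4, Nt5e, Entpd1 and Lrrc32 were higher and Foxp3 alone lower (74.8%). Of these 34 calls, 24 held when any 1 course was left out. The other 10 were lost without a course (adjusted p between 0.0564 and 0.265): Ikzf2 at 6 and 24 h without course 2, Nt5e at 6 and 12 h without course 1 or 3, and, without course 2 or 3, Ikzf2 at 12 h, Ikzf4 at 24 h, Entpd1 at 4 and 6 h and Lrrc32 at 2 and 6 h.

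Courses 4 to 6 combined IL6 and TGFb with IL1b and IL21, cytokines that strengthen or sustain the Th17 fate. They held no culture with IL6 and TGFb alone. Ikzf4 had an early rise in each cocktail, and at 1 h was at 261, 235 and 178 CPM in courses 4, 5 and 6 of the IL1b cocktail, 240, 199 and 173 CPM with IL21 and 211, 183 and 195 CPM with both. All 3 rises over naive cells were called (4.34 ± 0.19, 4.21 ± 0.19 and 4.21 ± 0.19, adjusted p = 4.17e-29, 1.69e-28 and 1.49e-28), where 62.3%, 63.8% and 63.9% of all genes were. The 4 h level of Lrrc32 was 5.68, 8.57 and 8.37 CPM with IL1b, 3.98, 5.84 and 5.68 CPM with IL21 and 5.32, 6.38 and 6.10 CPM with both, each called above naive cells (1.87 ± 0.31, 1.42 ± 0.31 and 1.60 ± 0.31). Nt5e at 12 h was at 69.5 to 96.4 CPM over the 9 cocktail libraries, above all 3 naive libraries of these courses (21.5, 26.6 and 26.7 CPM). Ctla4 at 4 h was at 47.1, 40.99 and 45.5 CPM with IL1b, 89.4, 72.5 and 76.2 CPM with IL21 and 76.1, 72.5 and 72.5 CPM with both. The IL1b libraries lay below all 6 others at 4 h; cocktails were not tested against each other before 24 h.

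**Figure D3:**
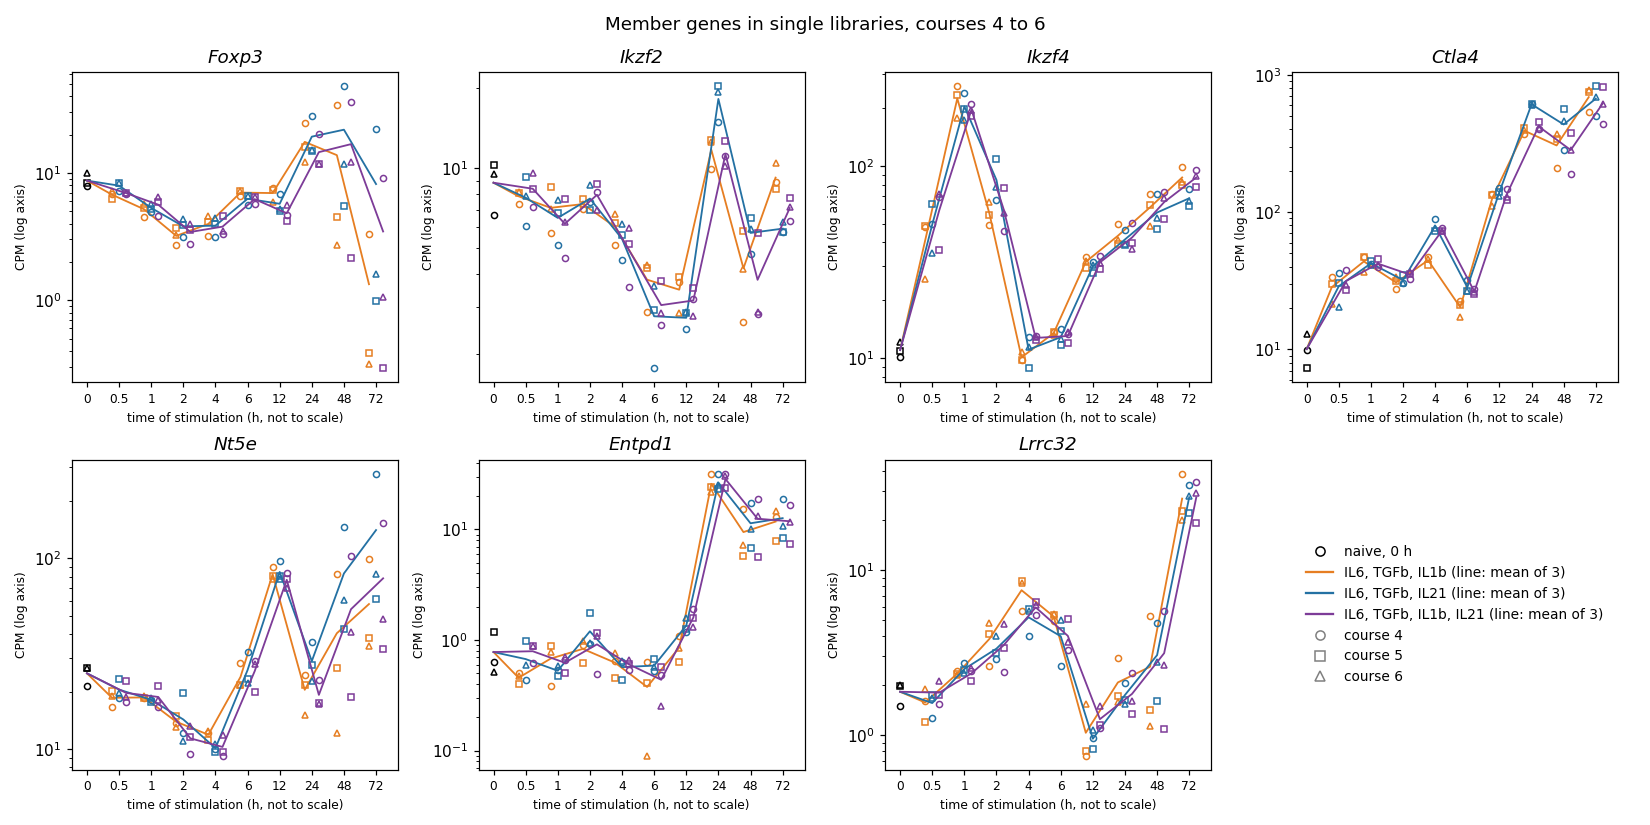
CPM of the 7 genes (log axis, 1 panel per gene) against hours of culture in courses 4 to 6, with 1 symbol shape per course and colours for naive cells and the IL1b, IL21 and double cocktails. Entpd1 rises between 12 h (0.629 to 1.90 CPM) and 24 h (21.9 to 32.0 CPM) in all 3 cocktails, and course 4 lies above courses 5 and 6 in Foxp3 and Nt5e at 48 and 72 h.

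Entpd1 repeated its step at 24 h in the cocktails. It was at 31.5, 24.2 and 21.9 CPM with IL1b, 31.5, 22.9995 and 25.1 CPM with IL21 and 32.0, 23.7 and 30.2 CPM with both, from 0.633, 1.19 and 0.516 CPM in naive cells. These rises were 4.35 ± 0.30, 4.39 ± 0.30 and 4.52 ± 0.30 (adjusted p = 7.83e-21, 5.8e-21 and 1.39e-21), in comparisons where 78.8%, 78.5% and 79.8% of all genes were called.

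Foxp3 in the cocktails differed between courses. At 24 h it was at 24.5, 15.9 and 12.2 CPM with IL1b, 27.9, 14.9 and 15.02 CPM with IL21 and 20.1, 11.8 and 11.8 CPM with both, all above the naive libraries, and no rise over naive cells was called (0.92 ± 0.66, 1.04 ± 0.66 and 0.69 ± 0.66; adjusted p = 0.193, 0.141 and 0.331). At 48 h course 4 had 34.1, 48.2 and 36.2 CPM in the IL1b, IL21 and double cocktails, while courses 5 and 6 had between 2.15 and 12.1 CPM. At 72 h the IL1b cocktail had 3.31, 0.384 and 0.317 CPM, the IL21 cocktail 21.9, 0.982 and 1.60 CPM and the double cocktail 9.05, 0.294 and 1.06 CPM. Against naive cells, Foxp3 at 72 h was called lower with IL1b (-2.66 ± 0.66, adjusted p = 0.000214) and with both (-1.96 ± 0.66, adjusted p = 0.00544), and not with IL21 (-1.12 ± 0.66, adjusted p = 0.11). Without course 4 the values were -3.43, -3.04 and -2.40 (adjusted p = 4.01e-11, 7.36e-10 and 1.31e-07), so all 3 were then called. The call with both was lost without course 5 (adjusted p = 0.178), without course 6 (adjusted p = 0.138), with edgeR (-1.24, adjusted p = 0.105) and with DESeq2 (adjusted p = 0.0926).

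Those separate results do not compare the cocktails; the direct comparison at 72 h gave a log2 difference in Foxp3 of -1.54 ± 0.66 between IL1b and IL21 (95% interval -2.85 to -0.23). Limma did not call it (adjusted p = 0.132), while edgeR (adjusted p = 0.0302) and DESeq2 (adjusted p = 0.0109) did. Without course 4 it was -1.03 (adjusted p = 0.0617), while the mean over 24, 48 and 72 h was called (-0.76, adjusted p = 0.00964; with all courses -0.86 ± 0.38, adjusted p = 0.14). At 72 h the IL1b library was below the IL21 library in each of the 3 courses.

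Counted against naive cells, the calls in the cocktails were as follows, with the shares of all genes called given for IL1b, IL21 and both in that order. At 0.5 h and at 1 h Ikzf4 and Ctla4 were higher in each (31.3%, 40.7% and 40.9% at 0.5 h; 62.3%, 63.8% and 63.9% at 1 h), and at 2 h Ikzf4, Ctla4 and Lrrc32 were (73%, 72.5% and 73.9%). At 4 h Ctla4 and Lrrc32 were higher and Nt5e lower in each, with Ikzf2 also lower with IL21 and with both (75%, 75.8% and 75.5%). At 6 h Ctla4 and Lrrc32 were higher and Ikzf2 lower (74.7%, 74.8% and 75.3%), and at 12 h Ikzf4, Ctla4 and Nt5e were higher and Ikzf2 lower, with Entpd1 also higher with both (75.3%, 74.6% and 75.6%).

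At 24 h Ikzf4, Ctla4 and Entpd1 were above naive in each cocktail, with Ikzf2 also higher with IL21 (78.8%, 78.5% and 79.8%). At 48 h the same 3 were higher and Ikzf2 lower, with Nt5e also higher with IL21 (81.1%, 81.2% and 82.1%). At 72 h Ikzf4, Ctla4, Nt5e, Entpd1 and Lrrc32 were higher in each, and Foxp3 was lower with IL1b and with both while Ikzf2 was lower with IL21 (82%, 80.5% and 81.4%). The Nt5e call with IL1b at 72 h was lost without course 4 (0.49, adjusted p = 0.089) and without course 6 (adjusted p = 0.0519), and the Ikzf2 call with IL21 without course 5 (adjusted p = 0.265), without course 6 (adjusted p = 0.111) and with no filter (adjusted p = 0.101). Over all 9 times, 27 of 30 calls with IL1b, 27 of 33 with IL21 and 28 of 32 with both held when any 1 course was left out. The further losses were Lrrc32 at 2 h in all 3 cocktails (without course 6), Nt5e at 4 h in all 3 (course 5 or 6), Ikzf2 at 4 and 48 h (course 5 or 6) and Lrrc32 at 6 h (course 6) with IL21, and, with both, Entpd1 at 12 h (course 4 or 6) and Foxp3 at 72 h (given above).

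**Figure D4:**
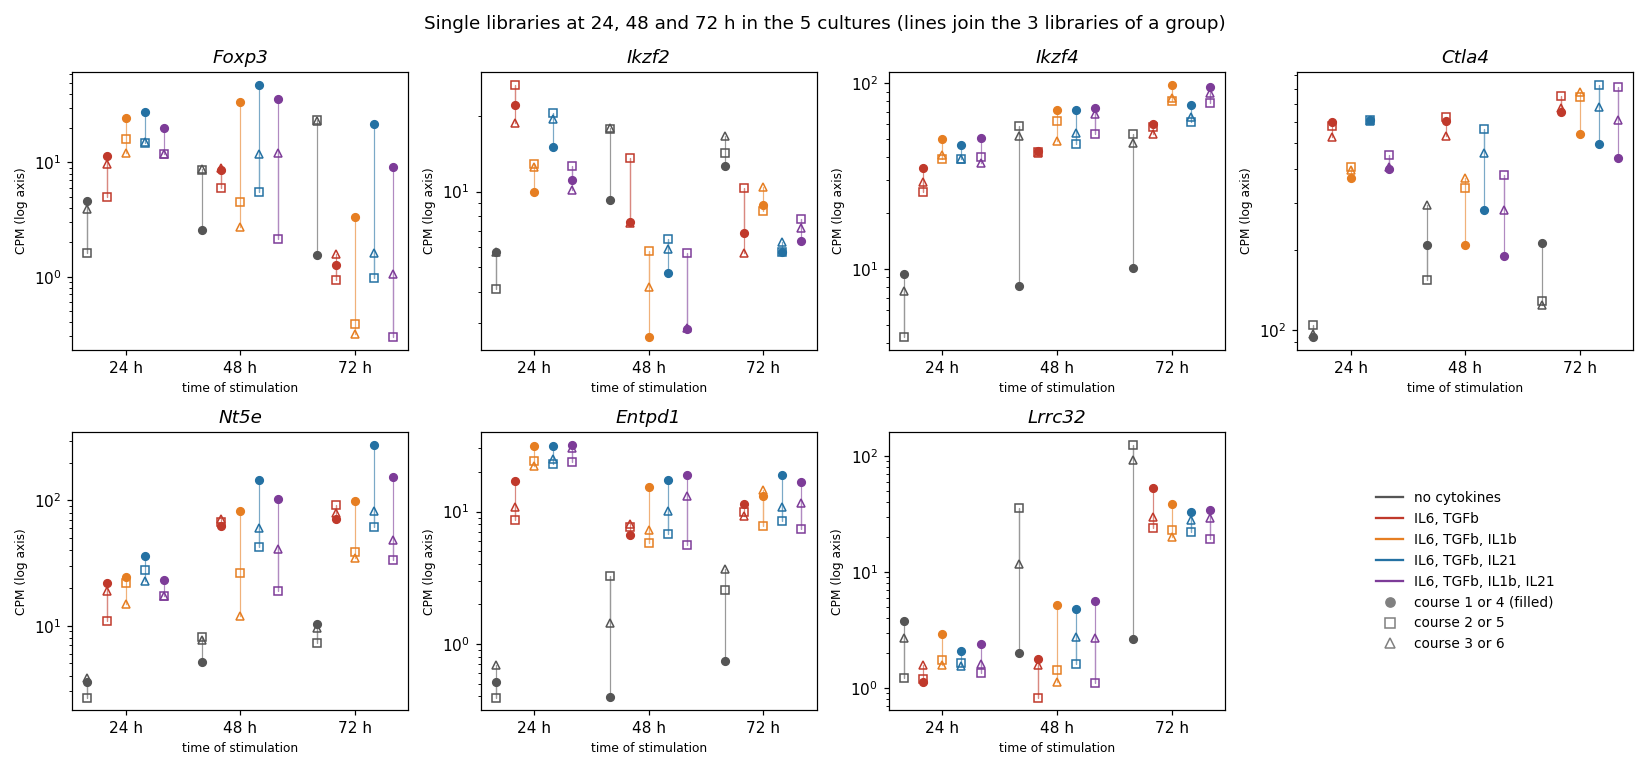
CPM of the 7 genes (log axis) in single libraries at 24, 48 and 72 h for all 5 culture conditions, with filled points for course 1 or 4 and open points for the other courses. The filled points lie lowest at 72 h without cytokines in Foxp3 (1.54 CPM), Ikzf4 (10.2 CPM) and Lrrc32 (2.64 CPM), and highest in the IL21 cocktail in Foxp3 (21.9 CPM) and Nt5e (278 CPM).

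Between cocktails, Ctla4 and Nt5e were the 2 genes with a called difference, as means over 24, 48 and 72 h. Ctla4 at 24 h was at 369, 408 and 397 CPM with IL1b, 612, 612 and 608 CPM with IL21 and 402, 453 and 407 CPM with both. The IL21 libraries lay above all others at that time. As a mean over the 3 times, Ctla4 was lower with IL1b than with IL21 (-0.36 ± 0.11, adjusted p = 0.0254) and lower with both than with IL21 (-0.41 ± 0.11, adjusted p = 0.0151). The first was lost without course 5 (adjusted p = 0.23), without course 6 (adjusted p = 0.164) and with no filter (adjusted p = 0.0527), the second without course 5 (adjusted p = 0.101) and course 6 (adjusted p = 0.281), and both in fits of only the libraries compared (adjusted p = 0.137 and 0.193). With each course at each time as a block in those fits both were called (adjusted p = 8.14e-05 and 2.71e-08), where 31.9% and 29.1% of all genes were. Same-numbered libraries did not deviate together at every time: for the first not at 48 h, for the second not at 24 h.

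Nt5e at 72 h was at 99.7, 38.4 and 34.6 CPM with IL1b and at 278, 61.0 and 83.0 CPM with IL21. The IL1b library was below the IL21 library of the same course at 24, 48 and 72 h in all 3 courses. The mean difference over these times was -0.96 ± 0.25 (adjusted p = 0.00475), with -0.98 without course 4 (adjusted p = 1.3e-05). It was not called without course 6 (adjusted p = 0.35) or in a fit of only the libraries compared (adjusted p = 0.13). With each course at each time as a block in that fit the adjusted p was 0.000295, although same-numbered libraries did not deviate together at 48 h. For IL1b against IL21 the mean over the 3 times called 2 of the 7 genes, with 11.4% of all genes, and for the double against the IL21 cocktail 1 of 7, with 6.78% of all genes.

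At single times, limma called 0 of the 7 genes between any cocktails in the fit of all groups without a block. Without course 4 it called 3 genes lower with IL1b than with IL21 at 48 h (Foxp3, -1.16, adjusted p = 0.0474; Nt5e, -1.54, adjusted p = 0.000172; Ctla4, -0.59, adjusted p = 0.0361). It then also called Nt5e (-0.94, adjusted p = 0.0195) and Ikzf2 (0.61, adjusted p = 0.034) at 72 h, and Ctla4 for the double against the IL21 cocktail at 48 h (-0.65, adjusted p = 0.0267). The share of all genes called without course 4 is not given here, so these calls cannot be set against it. The shares that follow are from the fit with all courses. For IL1b against IL21 0.242%, 2.44% and 9.89% of all genes were called at 24, 48 and 72 h, with 2, 3 and 3 of the 7 at an unadjusted p under 0.05; edgeR called 0, 0 and 3 of the 7 and DESeq2 0, 0 and 2. For the double against the IL21 cocktail 0.202%, 1.29% and 4.22% of all genes were called, with 2, 2 and 0 of the 7 at an unadjusted p under 0.05 and 0 by edgeR and DESeq2. For the double against the IL1b cocktail 0% of all genes were called at each time, and 0 of the 7 passed at an unadjusted p under 0.05 in limma or were called by edgeR or DESeq2.

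The Ikzf2 libraries of the IL1b and IL21 cocktails lay in opposite order at 24 and 72 h. The fit of all groups called neither difference, and the change between these times was not tested. At 24 h it was at 9.91, 12.8 and 12.6 CPM with IL1b and 14.98, 20.4 and 19.4 CPM with IL21, and at 72 h at 8.85, 8.40 and 10.5 CPM and 5.77, 5.75 and 6.28 CPM. The groups did not overlap at 24 h or at 72 h, and the share of all genes with such a separation was not counted. At 48 h the libraries overlapped, at 2.63, 5.81 and 4.19 CPM with IL1b and 4.75, 6.48 and 5.93 CPM with IL21. The log2 differences were -0.60 ± 0.21 at 24 h (adjusted p = 0.529) and 0.60 ± 0.21 at 72 h (adjusted p = 0.0504). Same-numbered libraries deviated together at both times, and with the course as a block both differences passed (adjusted p = 0.0481 and 0.00404). The block also brought the Nt5e difference at 72 h (-1.12 ± 0.43, adjusted p = 0.0857) under the threshold (adjusted p = 0.0474), and for the double against the IL21 cocktail at 48 h that of Ikzf2 (-0.57, adjusted p = 0.282, with the block 0.029).

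The block in fits of only the libraries compared called more genes where courses paired. At 72 h Ikzf4 was at 98.4, 80.1 and 82.99 CPM with IL1b, 75.99, 61.96 and 65.8 CPM with IL21 and 95.4, 77.9 and 88.3 CPM with both, so the IL21 library was the lowest in each course. The log2 differences from IL21 (0.37 and 0.38; adjusted p = 0.25 and 0.369 in the fit of all groups) passed in those fits (adjusted p = 0.00391 and 0.00136), where 23.7% and 18% of all genes were called. For IL1b against IL21 at 72 h they also called Foxp3 (adjusted p = 0.0238), Ikzf2 (adjusted p = 0.00867) and Nt5e (adjusted p = 0.00602), and at 24 h Ikzf2 (adjusted p = 1.58e-08), Ctla4 (adjusted p = 2.81e-17) and Nt5e (adjusted p = 7.65e-08; 12.3%). For the double against the IL21 cocktail they called Nt5e (adjusted p = 3.28e-05) and Foxp3 (adjusted p = 0.00935) at 72 h, and Ikzf2 (adjusted p = 0.0397), Ctla4 (adjusted p = 2.35e-05) and Nt5e (adjusted p = 0.00145; 7.6%) at 48 h.

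IL6 with TGFb and the cocktails come from different sets of courses, and set and added cytokine cannot be told apart in a direct comparison. With each set's own naive level subtracted, over 24 to 72 h, 0 of the 7 genes were called for each cocktail, beside 0.639% of all genes with IL1b, 0% with IL21 and 0.522% with both. In each comparison Entpd1 alone passed at an unadjusted p under 0.05, and edgeR and DESeq2 called 0. Its log2 differences were 0.79, 0.92 and 0.98 (adjusted p = 0.646, 1 and 0.445), and the 95% interval of the last was 0.21 to 1.75. Without course 4, Nt5e was called lower with IL1b (-0.99, adjusted p = 0.0384).

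The order of the 47 groups by mean level differed between genes. For Foxp3 the highest mean was 21.8 ± 23.01 CPM (SD, n = 3; IL21 cocktail, 48 h) and the lowest 1.26 ± 0.321 CPM (IL6 and TGFb, 72 h), and the libraries of neighbours in the order overlapped in all 46 pairs, as they did for Ikzf2 and Nt5e. Ikzf2 ran from 2.74 ± 0.222 CPM (IL21 cocktail, 12 h) to 22.5 ± 3.97 CPM (IL6 and TGFb, 24 h), and Nt5e from 3.16 ± 0.712 CPM (no cytokines, 12 h) to 140.7 ± 119 CPM (IL21 cocktail, 72 h). Ikzf4 ran from 4.78 ± 0.554 CPM (no cytokines, 4 h) to 225 ± 42.4 CPM (IL1b cocktail, 1 h), with 4 neighbouring pairs that did not overlap. Ctla4 ran from 6.73 ± 2.77 CPM (no cytokines, 4 h) to 695 ± 49.97 CPM (IL6 and TGFb, 72 h), with 6 such pairs. Entpd1 ran from 0.11 ± 0.0633 CPM (no cytokines, 12 h) to 28.6 ± 4.37 CPM (double cocktail, 24 h), and Lrrc32 from 0.949 ± 0.125 CPM (IL21 cocktail, 12 h) to 73.7 ± 63.7 CPM (no cytokines, 72 h), each with 2 such pairs.

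The 7 genes did not form 1 pattern over the 47 group means. Pearson's r of log2 levels was highest between Ctla4 and Entpd1 (0.857) and lowest between Foxp3 and Lrrc32 (-0.298), and Foxp3 stayed at or below 0.369 with each of the other 6. Among 10524 expressed genes, the genes whose pattern was most like a member's were Il17f (r = 0.943) beside Cyp1b1 (0.957) and Stard8 (0.943) for Entpd1, and Slc4a11 (0.935), Cog6 (0.904) and Pcdhgc3 (0.899) for Ctla4. For Ikzf4 they were Cmtm6 (0.887), Armcx6 (0.863) and Bmp2k (0.847), for Nt5e Acsbg1 (0.878), Arntl (0.859) and Cyth4 (0.854), and for Lrrc32 Stc1 (0.836), Ndrg1 (0.823) and Mzt1 (0.801). The closest to Foxp3 was Arl2bp (0.714) and to Ikzf2 Mier1 (0.744), lower than for the other members. These correlations describe group means that share courses and stimulation.

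Other genes of the same pathways were counted at 72 h with IL6 and TGFb against no cytokines, where 46.3% of all genes were called and their median log2 change was -0.05. Of 18 further Treg signature genes tested, 8 were higher and 5 lower (median 0.69). Among them Il10, which encodes an anti-inflammatory cytokine, was at 19.2, 36.7 and 27.3 CPM against 0.197, 0.276 and 0.659 CPM (4.98, adjusted p = 1.07e-19), and Nrp1, a surface marker of thymic Tregs, was lower (-2.28, adjusted p = 1.69e-05; -1.37 without course 1). Il2ra, the CD25 gene, was higher (1.34, adjusted p = 0.00359; without course 3 adjusted p = 0.0512), and so was the costimulatory receptor Icos (1.46, adjusted p = 3.65e-06; 1.82 without course 1). All genes named from these lists were also called in the same direction at 72 h without course 1.

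Of the factors known to favour Foxp3 transcription, 5 of 21 were higher and 5 lower (median 0.13), with Satb1 (2.19), Smad3 (1.88; 0.93 without course 1) and Stat5b (1.04) higher and Rel lower (-1.36; -0.42 without course 1). Of factors known to oppose Foxp3, 5 of 12 were higher and 4 lower (median 0.67). Rora (3.54), Hif1a (2.50) and Stat3 (1.75) were among those higher. The other Ikaros family genes split, with Ikzf3 (Aiolos) higher (2.31; 1.73 without course 1) and Ikzf1 (Ikaros) and Ikzf5 (Pegasus) lower (-0.88 and -0.40); the Ikzf5 call was lost without course 2 (adjusted p = 0.149), without course 3 (adjusted p = 0.0906) and with no filter (adjusted p = 0.0906).

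In the adenosine pathway 3 of 9 tested genes were higher and 4 lower (median -0.28). Enpp1, another ectoenzyme that releases AMP, was higher (1.86), and the adenosine receptor gene Adora2a (-0.79; -0.48 without course 1) and the adenosine deaminase gene Ada (-0.66; without course 3 adjusted p = 0.0582) were lower. In the CTLA-4 and CD28 list 5 of 9 were higher and 3 lower (median 0.22), with Cd28 (1.41) and its ligand gene Cd86 (2.63) higher and Trat1 lower (-4.02; -3.69 without course 1). Among genes that handle latent TGFb, 4 of 12 tested were higher and 1 lower (median -0.05). Furin, the protease that matures TGFb, rose most (3.56, at 787, 1008 and 813 CPM against 135, 62.1 and 55.8 CPM), with Tgfb3 (3.21) and the integrin gene Itgav (0.57) also higher and Nrros, a relative of Lrrc32, lower (-1.72). At 24 h, where 26.1% of all genes were called, the same lists gave 5 higher and 5 lower (Treg signature), 8 and 6 (favouring), 4 and 3 (opposing), 1 and 2 (adenosine), 0 and 2 (CTLA-4 and CD28) and 4 and 1 (latent TGFb).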

How the data were processed

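The table that the authors deposited is named for read counts but holds CPM: all columns sum to the same total, and 100% of values are whole multiples of what 1 read is worth (tolerance 0.001). Per the submitters' processing notes the tools were HTSeq and TopHat and the builds GRCh37 and mm9, without versions or roles. The table has 141 libraries (0 columns left out, 0 identical) and 46517 genes, and the 37 mitochondrial genes had 0 reads. Libraries were grouped by the labels' culture condition, time and course.

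The plan assumed edgeR if the values were counts; as they were CPM, limma-trend was run on log2 of TMM-scaled CPM plus 0.5, on genes that reached 1 CPM in 3 or more libraries. All groups of courses 1 to 3 (14695 genes, 38 residual degrees of freedom), of courses 4 to 6 (14859 genes, 56) or of both (15328 genes, 94) entered 1 fit, with Benjamini-Hochberg adjustment over all genes. All printed levels are CPM without TMM scaling. The comparisons were IL6 and TGFb against no cytokines, and each condition against its own naive group, at 9 times; the change of the cytokine effect from 2 to 24 h and from 24 to 72 h; the cocktails against each other; and each cocktail against IL6 and TGFb with own naive levels subtracted. The procedure was also run on simulated data with the same dispersion for all genes and no outlying library. That run cannot speak to the late libraries that stood apart. Versions were limma 3.58.1, DESeq2 1.42.0 and edgeR 4.0.16 under R 4.3.3, and pandas 2.3.3 and matplotlib 3.10.9 under Python 3.11.15.

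The alternatives were edgeR and DESeq2 on the recovered reads, pseudocounts of 0.1 and 1, no filter, no TMM scaling, fits of only the libraries compared, the course as a replicate block, and leaving out each course. For means between cocktails and changes of the effect, the block in fits of only the libraries compared was each course at each time. At 72 h, for IL6 and TGFb against no cytokines, limma called 6800 genes, edgeR 7208 and DESeq2 7177. To check whether courses pair the libraries, same-course deviations from the group means were correlated over genes: r exceeded 0.1 in all 3 courses for IL6 and TGFb against no cytokines at 0.5, 1, 2, 4 and 12 h, and not at 6, 24, 48 and 72 h. Among cocktails r did so for IL1b against IL21 at 24 h (lowest 0.143) and 72 h (0.496), for the double against IL21 at 48 h (0.1) and 72 h (0.511) and for the double against IL1b at 72 h (0.432).

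The 7 genes are all named. Of each other list, up to 4 called genes with the largest change at 72 h are named if their mean reaches 5 CPM and the groups do not overlap, and all Ikaros genes; 1 gene that this rule names is not reported here. For each member the genes most like it are the 3 with the highest Pearson correlation of log2 group means, without predicted genes and clones. The 7 genes, the lists and the comparisons were chosen with earlier results of these data known, and the promoter motifs after the data were seen. Promoters are RefSeq windows on GRCm38.p6, a build other than the mm9 of the notes, and serve for sequence only.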

Additional observations from a re-analysis of the deposited data

Results flagged for a closer look

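The effect of IL6 and TGFb, as the log2 difference from no cytokines, differed between times for 5 of the 7 genes by an interaction term in limma. From 2 to 24 h it grew by 2.51 for Ikzf2 (adjusted p = 3.65e-05), 1.62 for Ctla4 (adjusted p = 2.32e-05), 2.89 for Nt5e (adjusted p = 2.39e-11) and 3.04 for Entpd1 (adjusted p = 2.11e-05), where 19.4% of all genes were called. From 24 to 72 h it changed by -2.85 for Ikzf2 (adjusted p = 4.34e-06), by 1.02 for Nt5e (adjusted p = 0.00455) and by -3.78 for Foxp3 (adjusted p = 0.000455), where 21.6% of all genes were called. For Nt5e from 24 to 72 h the value without course 2 was 0.60 (adjusted p = 0.162), and a fit of only the libraries compared gave an adjusted p of 0.0835. For Foxp3 it was -3.03 without course 2 (adjusted p = 0.121). Edge cases lie in the same comparison: Entpd1 changed by -1.40, which limma did not call (adjusted p = 0.0519) and edgeR and DESeq2 did.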

How the results depend on the processing

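Of 2320 recomputed values of the 194 called single results, 2197 kept their direction and their call, 123 lost the call and 0 reversed. Leaving out a course accounted for 79 of the 123, among 582 such values. Without course 2 the call was lost in 27 of 96. Over all times, IL6 and TGFb against no cytokines gave 25 calls for the 7 genes (18 to 33 when 1 course was left out), no cytokines against naive 30 (20 to 40), IL6 and TGFb against naive 34 (26 to 39), the change of the effect 7 (5 to 10) and the cocktails against naive 95 (82 to 109). The cocktails against each other gave 3 (0 to 11, with 11 without course 4, 1 without course 5 and 0 without course 6), 6 with edgeR and 5 with DESeq2. The shares of all genes called in these refits of the cocktails are not given here. The cocktails against IL6 and TGFb gave 0 (0 to 1, with 1 without course 1 or course 4) and 2 in fits of only the libraries compared, both Ikzf4 (0.73 and 0.76, adjusted p = 0.0121 and 0.0126).

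With the course as a replicate block the 194 calls were all kept, and the calls between cocktails went from 3 to 10 of 84 tests. The share of all genes called with this block is not given here. The block was also put in fits of only the libraries compared, an alternative chosen after seeing the data. There the calls were 38 of 57 for IL6 and TGFb against no cytokines, where between 2.84% and 51.8% of all genes were called. Between cocktails they were 28 of 84 (0% to 31.9% of all genes by comparison). For the cocktails against IL6 and TGFb they were 2 of 21 (0% to 2.1%). In comparisons where courses pair, the block gained 4 calls between cocktails, which are given beside their results, and against naive cells Ikzf2 in the IL1b cocktail at 4 h (adjusted p = 0.0178) and 24 h (adjusted p = 0.0123), and Entpd1 (adjusted p = 0.0306) and Lrrc32 (adjusted p = 0.0482) without cytokines at 1 h. Where they do not pair, the libraries share only a number. There the block gained Foxp3 at 24 h (adjusted p = 0.0201) and Ikzf2 at 6 h (adjusted p = 0.00429) for IL6 and TGFb against no cytokines. Further such gains were Ikzf2 for the double against the IL21 cocktail at 24 h, and calls of Foxp3, Ikzf2 and Nt5e against naive cells.

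Without TMM scaling the median change of all genes in the comparisons of courses 1 to 3 moved by at most 0.19 (IL6 and TGFb against naive, 1 h), and 2 calls were lost, both against naive cells at 2 h: Ctla4 without cytokines (0.28, adjusted p = 0.232) and Lrrc32 with IL6 and TGFb (1.46, adjusted p = 0.0667). Depth limits Entpd1 before 24 h, where a library could hold a single read. With 3 libraries in a group, 1 course decides several late values.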

Other observations

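Klrd1, a receptor gene of NK cells and activated T cells, differed between courses in the cultures where Foxp3 and Nt5e did. At 72 h it was at 62.7, 18.004 and 18.4 CPM in courses 4, 5 and 6 of the IL1b cocktail, at 90.1, 17.4 and 35.6 CPM with IL21 and at 90.0, 16.2 and 33.8 CPM with both. With IL6 and TGFb in courses 1, 2 and 3 it was at 23.5, 17.6 and 20.0 CPM. Course 4 was the highest in every cocktail. Ebf1, a B cell factor gene, was at 13.98 and 16.4 CPM in courses 5 and 6 of the IL1b cocktail at 72 h and at 4.31 CPM in course 4. These genes were chosen after their values were seen, and no test was run on them.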
